A study of Oryza sativa with 4 samples.

Results

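The JASMONATE ZIM-DOMAIN (JAZ) repressors examined here are 8 rice loci, chosen by locus identifier from the 55986 loci of the authors' expression table. The loci are LOC_Os03g08310, LOC_Os03g08320 and LOC_Os03g08330 in a row on chromosome 3, LOC_Os10g25230 and LOC_Os10g25290 near each other on chromosome 10, and LOC_Os03g28940, LOC_Os07g42370 and LOC_Os09g26780 elsewhere. Their assignment to the JAZ/TIFY family rests on the choice of members, because the tables used here give no description of these loci, so single family names are not attached to them. All 8 were found in the table, and each had reads in both libraries.

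The study compared panicles (rice inflorescences) at the secondary branch stage of p35S:MIM396 plants with those of wild-type (WT) Yutai B, with 1 RNA library each. MIM396 is a decoy target RNA that sequesters the microRNA miR396, which represses growth-regulating factors such as OsGRF6, and 35S is a constitutive viral promoter, so the decoy is not limited to the panicle. Binding of OsGRF6 was measured in callus, an undifferentiated cultured tissue, of p35S:GRF6-GFP lines with 1 anti-GFP ChIP library and 1 input library. The sources used here do not say whether a library pools several plants. With 1 library per genotype no difference was tested, so the values below compare 2 libraries, and each 95% interval covers counting error only.

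JAZ proteins bind MYC-type transcription factors and keep jasmonate-responsive genes off. The active hormone, jasmonoyl-isoleucine, joins JAZ proteins to the F-box receptor COI, upon which they are degraded and the transcription factors are released. Many JAZ genes are themselves switched on by this release, which forms a negative feedback loop, and jasmonate signalling in grasses is known for roles in wounding and defence and in spikelet and stamen development.

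The libraries differed in composition far beyond the JAZ genes. MIM396 had 13125593 reads and WT 16337528, and 24527 loci in MIM396 and 24720 in WT had at least 1 read. A list of 13 loci was taken as young panicle and meristem genes from general knowledge. It had at least 1 FPKM (a read level per length of locus, in the authors' scaling of each library) at 11 loci in MIM396 and at 5 in WT. LOC_Os03g51690 of that list, with 3988 reads in MIM396, had 0 in WT, and LOC_Os04g51000 had 1448 reads in MIM396 and 0 in WT. Of the 13, 0 loci were without reads in MIM396 and 5 in WT. By the size rule given below, 23.1% of all 19456 loci that reach its minimum level were higher in MIM396 and 27.3% lower. Of the 13, 7 were higher, 1 lower, 2 neither and 3 under that level. The lower one, LOC_Os01g40630, had 8.47 FPKM in MIM396 and 130.5 FPKM in WT, and LOC_Os03g54160 had 94.0 FPKM in MIM396 and 110.8 FPKM in WT. A list of 9 leaf photosynthesis loci, also from general knowledge, summed to 45.6 FPKM in MIM396 and 67495 FPKM in WT. Each of the 9 was at least 2-fold lower in MIM396, against 27.3% of all loci that reach the minimum level. The WT library thus lacked reads of several loci listed for its labelled tissue and was rich in those listed for leaf. These values move with genotype in every comparison below, and their part in the JAZ values was not tested. In bulk tissue, fewer cells of a type and less RNA per cell cannot be told apart.

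Of the JAZ members, 5 were at least 2-fold higher in MIM396 and none was that much lower. Calls went by size: log2 of (MIM396 FPKM + 1) / (WT FPKM + 1) had to reach 1 or -1, and the mean FPKM of both libraries had to reach 1 (the floor). By this rule 5 of the 7 members above the floor were higher in MIM396, 0 were lower and 2 were neither, and LOC_Os03g08310 lay under the floor. Among all 19456 loci above the floor, 23.1% were called higher and 27.3% lower. At a limit of 4-fold by the same rule, 1 member was higher, against 10.4% of all loci. LOC_Os10g25230 missed this limit at a log2 ratio of 1.93 with 1 FPKM added, although its ratio of scaled reads was 5.82. Members had a median log2 ratio of 1.11 over the 7 above the floor, and all loci had -0.000385 with quartiles of -1.16 and 0.91. In the authors' deposited table, 0 of the 8 members had an FDR (adjusted p-value) under 0.05, with values from 0.134 to 0.823. Of all 55986 loci 4.95% did, a share that also counts the loci without reads.

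The split of calls over all loci depends on scaling, since the authors' FPKM do not bring the libraries to equal totals. Of all loci called, 45.8% were higher in MIM396 under the authors' scaling, 67.9% with equal FPKM totals and 59.8% when the top 50 loci of each library were dropped before equalising the totals. The median of all loci moved to 0.68 and 0.41 under these alternatives. The member median lay 1.11 above the median of all loci under the authors' scaling, and 1.11 above it under both alternatives. Each alternative multiplies all loci of a library by 1 factor. Both medians therefore shift nearly alike, and this agreement follows by construction. With either alternative 6 members were called higher and 0 lower, and the added one was LOC_Os07g42370. Of all loci above the floor, 40.2% were called higher and 19.0% lower with equal totals. With the top 50 loci dropped, 32.4% were called higher and 21.8% lower.

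The chromosome 10 pair showed the highest ratios. LOC_Os10g25290 (chromosome 10, 13069728 to 13070894) had 21.3 FPKM in the MIM396 library, from 312 reads, and 3.80 FPKM in the WT library, from 45 reads. Its ratio of scaled reads was 5.54 (95% interval 4.04 to 7.75). LOC_Os10g25230 (13030985 to 13032006) had 7.90 FPKM in MIM396, from 124 reads, and 1.34 FPKM in WT, from 17 reads. It had a ratio of 5.82 (3.49 to 10.3), which overlapped that of its partner. Log2 ratios of 2.22 for LOC_Os10g25290 and 1.93 for LOC_Os10g25230 were exceeded by 8.58% and 11.0% of the loci above the floor. The pair held the smallest FDR values of the members in the authors' deposited table, 0.134 for LOC_Os10g25290 and 0.159 for LOC_Os10g25230.

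**Figure D1:**
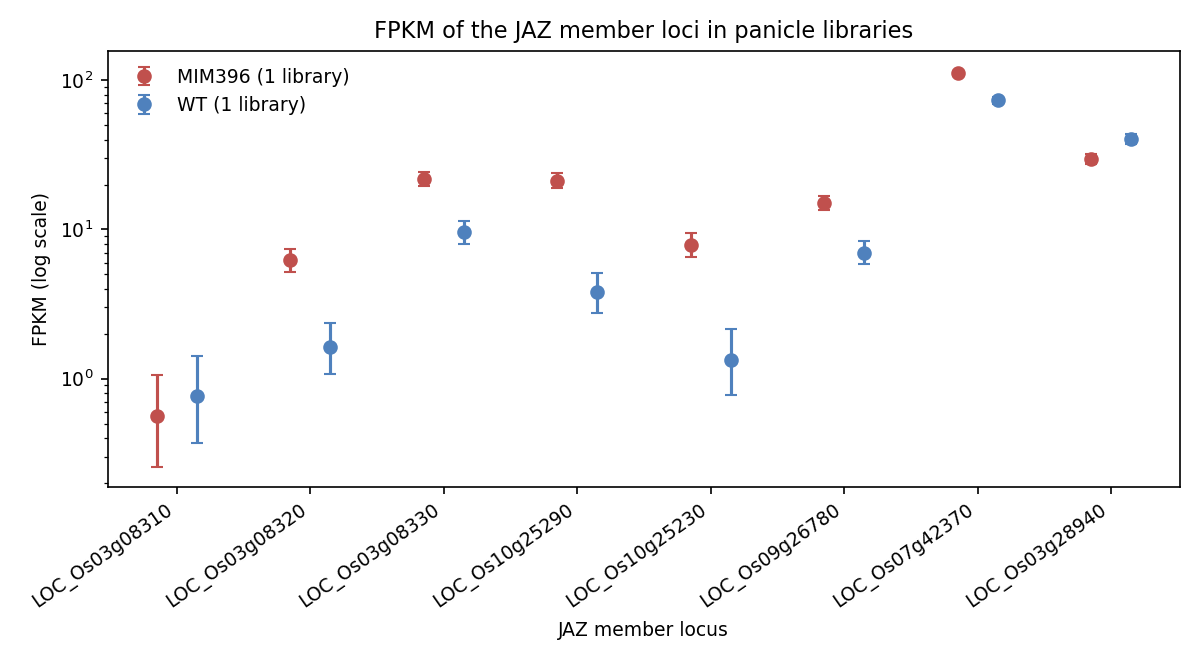
FPKM (vertical log axis) of each JAZ member in the MIM396 and WT panicle libraries, 1 library each, with bars for 95% exact Poisson counting intervals. The MIM396 point lies above the WT point at 6 loci and below it at LOC_Os03g28940 and LOC_Os03g08310. In scaled reads the ratio is 1.51 at LOC_Os07g42370 and 5.82 at LOC_Os10g25230.

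The chromosome 3 row was not uniform. LOC_Os03g08320 (chromosome 3, 4236723 to 4238274) had 6.22 FPKM in MIM396, from 133 reads, and 1.63 FPKM in WT, from 28 reads, a ratio of 3.79 (2.51 to 5.92). LOC_Os03g08330 (4248883 to 4249985) had 21.8 FPKM in MIM396, from 375 reads, and 9.58 FPKM in WT, from 133 reads, a ratio of 2.25 (1.84 to 2.76). Both were called higher, with log2 ratios of 1.46 and 1.11. Their neighbour LOC_Os03g08310 (4232000 to 4233042) was near the limit of detection in both libraries, with 0.559 FPKM in MIM396 and 0.770 FPKM in WT. Its 9 reads in MIM396 and 10 in WT gave a ratio of 0.719 with an interval of 0.258 to 1.97, so no difference was detectable at this depth. The interval of LOC_Os03g08320 lay above that of LOC_Os03g08310, while that of LOC_Os03g08330 overlapped it.

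Outside the clusters, 1 of 3 members was called. LOC_Os09g26780 (chromosome 9, 16273335 to 16275273) had 15.1 FPKM in MIM396, from 334 reads, and 7.00 FPKM in WT, from 125 reads. The ratio was 2.13 (1.73 to 2.64), and its log2 ratio of 1.005 lay just inside the size limit of 1. LOC_Os07g42370 (chromosome 7, 25347984 to 25351810) was the most abundant member in both libraries, with 111.9 FPKM in MIM396 and 73.3 FPKM in WT. Its ratio of 1.51 (1.41 to 1.62) was the closest below the limit, with a log2 ratio of 0.60. LOC_Os03g28940 (chromosome 3, 16407669 to 16410080) had 29.7 FPKM in MIM396 and 40.6 FPKM in WT, a ratio of 0.724 (0.648 to 0.810). It was the only member whose interval lay below 1, and its log2 ratio of -0.44 turned to 0.28 with equal totals and was -0.0022 with the most abundant loci left out.

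**Figure D2:**
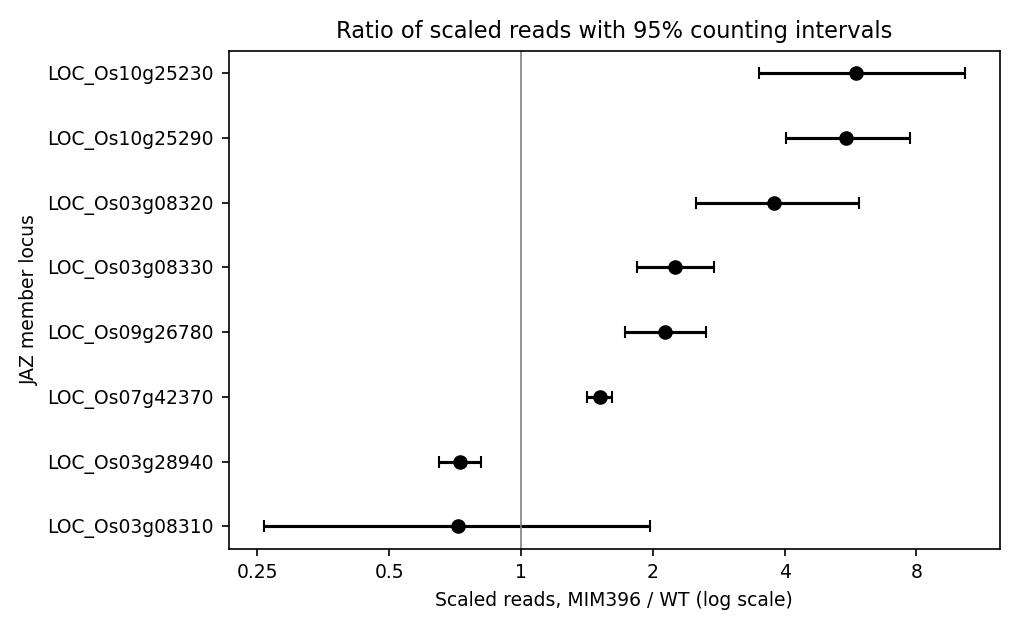
Ratio of scaled reads, MIM396 over WT (horizontal log axis), for each JAZ member with 95% exact conditional binomial intervals, 1 library per genotype. The intervals of 6 members lie above 1, that of LOC_Os03g28940 lies below 1 and that of LOC_Os03g08310, from 0.258 to 1.97, holds 1.

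Counting intervals were narrow beside the differences between loci, for members as for other loci. The interval lay above 1 for 6 members, below 1 for 1 and held 1 for 1, and among all loci above the floor 41.9% had an interval above 1 and 42.7% one below 1. Intervals that miss 1 were thus the usual case in these libraries. Between members, where any scaling of the libraries cancels, the intervals of the ratio stood apart in 18 of 28 pairs. Among the 7 members above the floor they stood apart in 71.4% of pairs, and among all loci above the floor in 80.8%. Both chromosome 10 loci had intervals above those of LOC_Os03g08330, LOC_Os09g26780, LOC_Os07g42370, LOC_Os03g28940 and LOC_Os03g08310, and intervals that overlapped that of LOC_Os03g08320. The ratio of LOC_Os10g25230 was 8.04 times that of LOC_Os03g28940.

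The order of levels was led by the same loci in both libraries. In MIM396 the order of FPKM was LOC_Os07g42370, LOC_Os03g28940, LOC_Os03g08330, LOC_Os10g25290, LOC_Os09g26780, LOC_Os10g25230, LOC_Os03g08320 and LOC_Os03g08310. Neighbours in this order differed beyond their counting intervals except LOC_Os03g08330 and LOC_Os10g25290, and LOC_Os10g25230 and LOC_Os03g08320. In WT, LOC_Os09g26780 stood above LOC_Os10g25290, and LOC_Os03g08320 above LOC_Os10g25230. The WT intervals overlapped between LOC_Os03g08330 and LOC_Os09g26780, between LOC_Os03g08320 and LOC_Os10g25230, and between LOC_Os10g25230 and LOC_Os03g08310.

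The members summed to 214.4 FPKM in MIM396 and 138.1 FPKM in WT, a ratio of 1.55. LOC_Os07g42370 and LOC_Os03g28940 together made 66.0% of the sum in MIM396 and 82.5% in WT. The 5 called members made 33.7% in MIM396 and 16.9% in WT, and the chromosome 10 pair alone 13.6% in MIM396 and 3.72% in WT. These shares do not depend on how the libraries are scaled to each other, but the called members and the pair were picked for their ratios, so the direction of their shares follows from the choice. LOC_Os03g08310, the least abundant member, made 0.261% in MIM396 and 0.558% in WT.

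The place of each member among the loci above the floor gives a measure that scaling of a library does not change, other than through which loci pass the floor. LOC_Os10g25290 stood above 74.8% of those loci in the MIM396 library and above 28.0% in the WT library. LOC_Os10g25230 stood above 47.2% in MIM396 and 12.3% in WT, and LOC_Os03g08320 above 41.4% in MIM396 and 14.3% in WT. LOC_Os03g08330 stood above 75.3% in MIM396 and 48.7% in WT, and LOC_Os09g26780 above 65.5% in MIM396 and 41.1% in WT. The 3 uncalled members kept close places, with LOC_Os07g42370 above 96.6% in MIM396 and 91.8% in WT, LOC_Os03g28940 above 82.2% in MIM396 and 84.3% in WT, and LOC_Os03g08310 above 8.36% in MIM396 and 8.57% in WT. Large moves of called members and small moves of uncalled ones largely follow from the calls, which used the same levels. LOC_Os03g08310 is itself under the floor, which holds it near the bottom in both libraries.

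**Figure D3:**
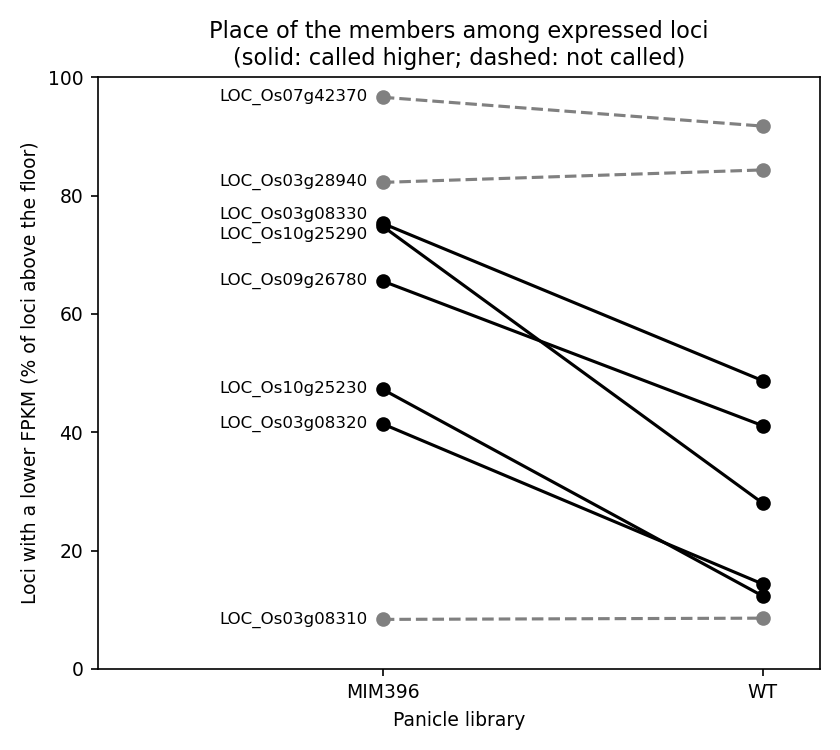
Place of each JAZ member among the 19456 loci above the floor, as the percentage of those loci with a lower FPKM (vertical axis), in the MIM396 and WT libraries. Solid lines are the 5 members called higher, each at a higher place in MIM396, and dashed lines are LOC_Os07g42370, LOC_Os03g28940 and LOC_Os03g08310. The direction of the solid lines and the small slope of the dashed ones largely follow from the calls, which used the same levels.

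The chromosome 3 row spans 17.986 kb with no other locus of the table between its 3 members. The chromosome 10 pair spans 39.9 kb with 4 other loci in between, 3 of them without reads in either library. One of the 3 is LOC_Os10g25250, listed from general knowledge as a further JAZ locus, and the locus with reads, LOC_Os10g25260, had 4 reads in MIM396 and 1 in WT. Directly before the chromosome 10 pair, LOC_Os10g25220 had 2.24 FPKM in MIM396, from 97 reads, and 0.230 FPKM in WT, from 8 reads, and was called higher. Directly after it, LOC_Os10g25300 had no reads in either library. Next to the chromosome 3 row, LOC_Os03g08300, whose interval another locus overlaps, had 10.7 FPKM in MIM396 and 7.31 FPKM in WT, and LOC_Os03g08350 had 0.556 FPKM in MIM396 and 2.04 FPKM in WT. Neither was called. No member interval overlapped another locus of the table, but reads of similar family members may have been divided between them, and similarity was not measured because no sequence was used here.

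**Figure D4:**
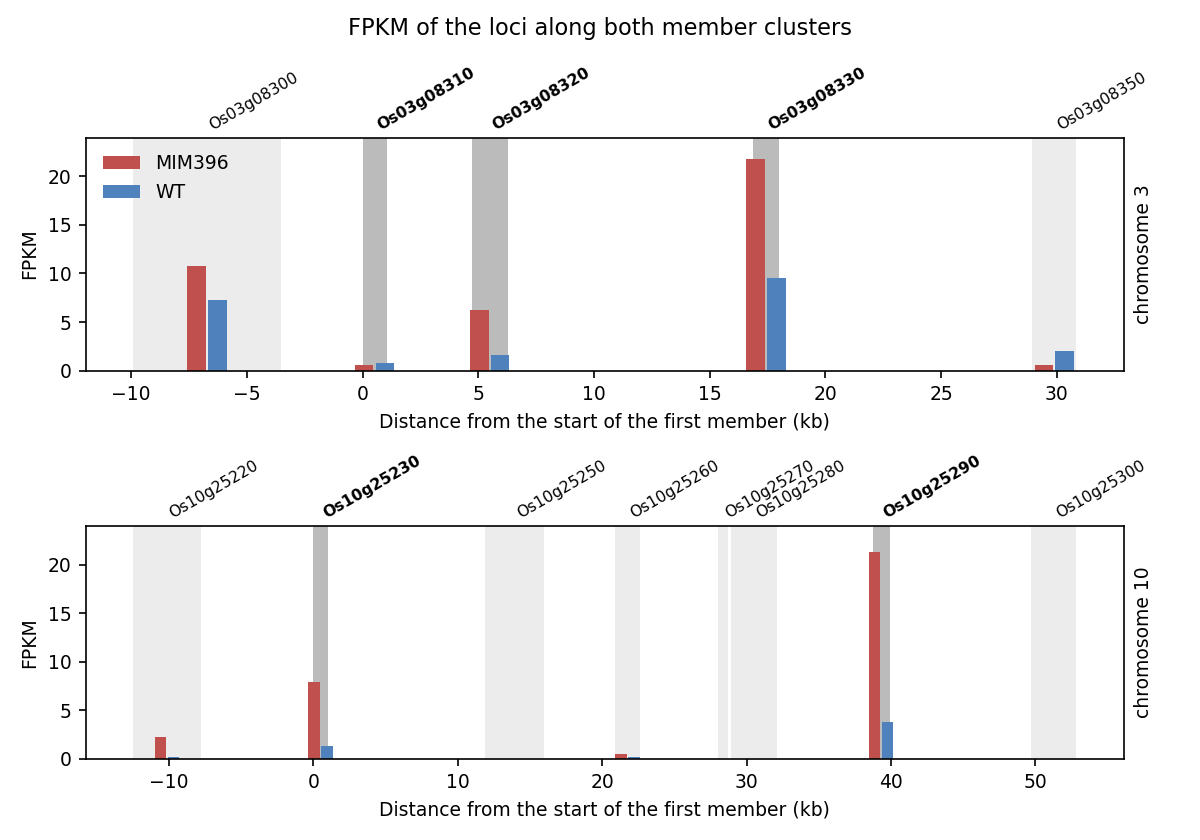
FPKM (vertical axis) of the loci along the chromosome 3 row and the chromosome 10 pair in the MIM396 (left bar) and WT (right bar) libraries, against distance in kb from the start of the first member. Dark bands are members and light bands other loci. The 4 members with tall bars in MIM396 have 6.22 to 21.8 FPKM there and 1.34 to 9.58 FPKM in WT, while LOC_Os03g08310 stays under 1 FPKM.

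The binding data hold little on the members. The authors' peak table held 142 peaks, and 0 of the 8 loci were among the genes placed at them. Of all 55986 loci 0.313% were, so a count of 0 among 8 is no result about the members. The nearest listed peak lay 114.2 kb from LOC_Os07g42370 (peak 134), 324.7 kb from LOC_Os09g26780 (peak 152) and 601.0 kb from LOC_Os03g28940 (peak 65). It lay 1705 to 1722 kb from the chromosome 3 row and 5011 to 5049 kb from the chromosome 10 pair. The list holds gene-assigned peaks of 1 callus library under a constitutive promoter, so the absence of a listed peak is a statement about that list. None of the loci in the 3 jasmonate lists described next was in the peak table either, although LOC_Os01g67430 of the synthesis list, with 5 reads in MIM396 and 4 in WT, lay 2.68 kb from peak 35.

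Other JAZ loci did not reach the size limit. A list of 7 further JAZ loci, set from general knowledge of locus numbers, had 3 loci above the floor, of which 0 were called higher and 0 lower, against 23.1% and 27.3% of all loci. Their median log2 ratio of 0.07 moved to 0.76 with equal totals and 0.49 with the top 50 loci dropped, and under both 0 were called. The median of all loci was 0.68 and 0.41 under these settings. LOC_Os04g55920 had 94.1 FPKM in MIM396 and 79.2 FPKM in WT, a ratio of 1.18 (1.10 to 1.27). LOC_Os08g33160 had 13.1 FPKM in MIM396 and 12.4 FPKM in WT, a ratio of 1.05 (0.911 to 1.21). LOC_Os09g23660 had 9.25 FPKM in MIM396 and 16.7 FPKM in WT, a ratio of 0.554 (0.477 to 0.644) and a log2 ratio of -0.79. The recovered reads of LOC_Os09g23660 were not whole, so its interval is approximate. The mean FPKM of these 3 loci lay within or above the range of the called members. Of the other 4, LOC_Os03g27900 had 1 read in MIM396 and 0 in WT, and 3 had no reads in either library. A count of 0 allows up to 3 reads per library.

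Among the genes that make the hormone, several were lower in MIM396. Of 10 loci listed for jasmonate synthesis, 8 were above the floor, and 0 were called higher and 4 lower, against 23.1% and 27.3% of all loci, with a median log2 ratio of -1.07. With equal totals 2 were lower and the median was -0.0215, against 19.0% lower and a median of 0.68 among all loci. With no filter on the mean the synthesis median was -0.65, so neither the count nor the median is firm. LOC_Os12g37260 had 0.194 FPKM in MIM396, from 11 reads, and 93.6 FPKM in WT, from 4250 reads, a ratio of 0.00207 (0.00103 to 0.00370) and an FDR of 2.89e-06 in the authors' deposited table. LOC_Os08g39850 had 0 reads in MIM396 and 191 in WT, a ratio whose 95% interval ends at 0.0156, and LOC_Os08g39840 had 0 reads in MIM396 and 93 in WT, with an interval that ends at 0.0323. LOC_Os01g12160 had 4.52 FPKM in MIM396 and 13.8 FPKM in WT, a ratio of 0.336 (0.276 to 0.406). The locus nearest to a call in the other direction was LOC_Os03g55800, with 14.3 FPKM in MIM396 and 6.79 FPKM in WT, a ratio of 2.09 (1.76 to 2.49) and a log2 ratio of 0.97, and it was named after its values were seen. With a pseudocount of 0.5 or 0.1 FPKM or with equal totals, 1 synthesis locus was called higher.

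**Figure D5:**
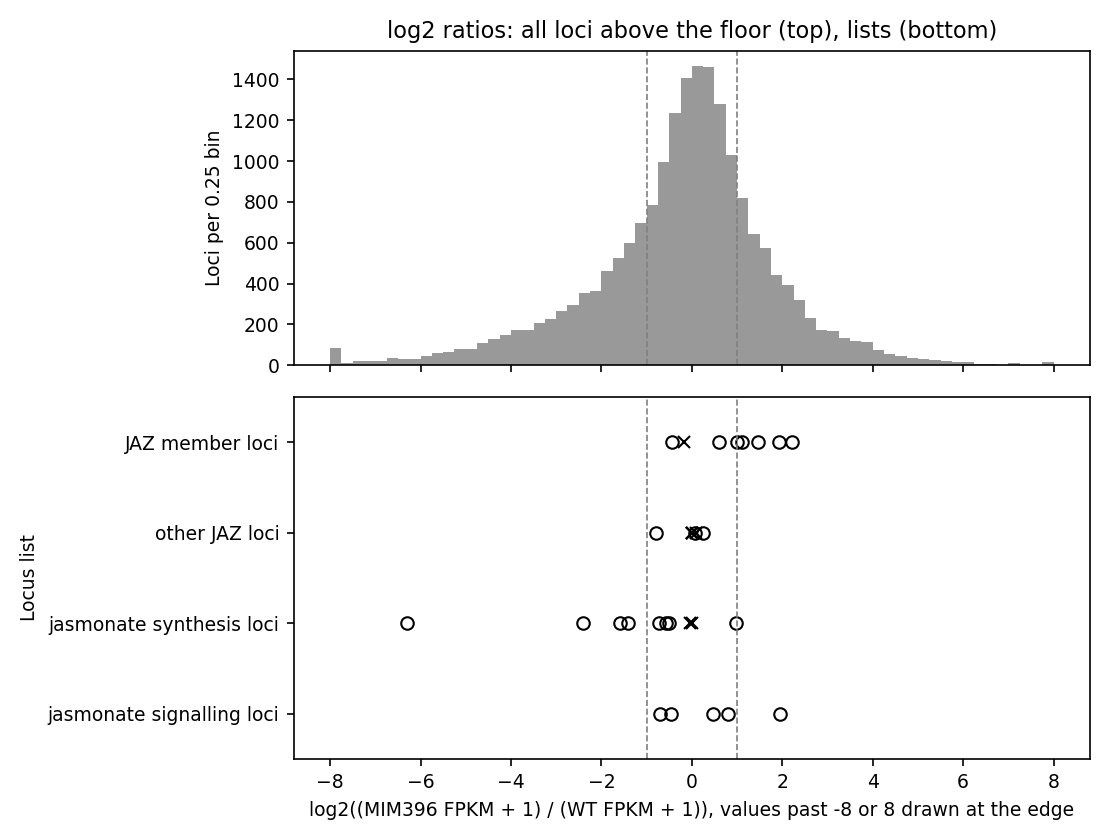
Log2 ratio of MIM396 over WT on the log2(FPKM + 1) scale (horizontal axis) for all 19456 loci above the floor as a histogram, and for the JAZ members and 3 jasmonate lists as points, with dashed lines at the limits of -1 and 1. Circles are loci above the floor and crosses loci under it. Past 1 lie 5 members, no further JAZ locus and 1 signalling locus, and past -1 lie 4 synthesis loci.

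Under the authors' scaling, receptor and signalling loci were called higher at about the background share and none was called lower. The count moved with scaling. Of 5 loci listed for jasmonate perception and signalling, all above the floor, 1 was called higher and 0 lower, against 23.1% and 27.3% of all loci, with a median log2 ratio of 0.48. With equal totals 3 were higher and the median was 1.21, against 40.2% higher and a median of 0.68 among all loci. With the top 50 loci dropped 2 were higher and the median was 0.92, against 32.4% higher and a median of 0.41 among all loci. LOC_Os01g63420 had 109.6 FPKM in MIM396, from 4445 reads, and 27.6 FPKM in WT, from 932 reads, a ratio of 3.81 (3.55 to 4.09). The other 4 had log2 ratios between -0.71 and 0.79. Of 6 loci listed for early stress responses, 4 were above the floor, and 1 was called higher and 2 lower, against 23.1% and 27.3% of all loci. LOC_Os03g60080 was the higher one, with 209.3 FPKM in MIM396 and 42.9 FPKM in WT. The lower ones were LOC_Os05g27730, with 25.7 FPKM in MIM396 and 86.3 FPKM in WT, and LOC_Os09g35010, with 4.14 FPKM in MIM396 and 13.3 FPKM in WT. Of the 2 under the floor, LOC_Os05g39720 had 1 read in MIM396 and 37 in WT, a ratio of 0.0216 (0.000532 to 0.128). LOC_Os06g03670 had 3 reads in MIM396 and 0 in WT.

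Over the 8 members, the median level was 18.2 FPKM in MIM396 and 5.40 FPKM in WT, each taken on its own. Within a distance of 0.5 of that point on the log2(FPKM + 1) scale of both libraries lay 2 members and 338 other loci, so the point describes the members only loosely. For single loci, distance was taken from the medians of the members' log2(FPKM + 1) values, a point slightly off the printed medians. The other loci nearest to that point, over 2 libraries, were LOC_Os03g29980 and LOC_Os04g48060. LOC_Os03g29980 had 17.6 FPKM in MIM396 and 5.22 FPKM in WT, at a distance of 0.024. LOC_Os04g48060 had 18.3 FPKM in MIM396 and 5.02 FPKM in WT, at a distance of 0.050.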

How the data were processed

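RNA libraries of panicles (1 MIM396, 1 WT) and ChIP and input libraries of callus (1 each) were used as tables that the authors deposited. FastQC and Bowtie were used, per the submitters' processing notes. The sources used here give no counter, annotation release or genome build, and coordinates are those of the deposited tables. The FPKM values were computed by the authors, per the file headers. The deposited read signal, named as counts in the header, was gene reads multiplied by 1 factor per library: dividing by 0.844 (MIM396) and 1.057 (WT) brought 99.0% and 98.5% of positive values to within 0.01 of a whole number. These recovered reads are the reads printed. The FDR is the authors' adjusted p-value, per the file headers, from a test that is not stated. Peak positions come from the deposited peak table, whose identifiers begin with MACS, a peak caller.

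Log2 ratios used a pseudocount of 1 FPKM, which understates differences of low loci. Calls needed a ratio of at least 2-fold and a mean of at least 1 FPKM. Ratios of scaled reads carry 95% exact conditional binomial (Clopper-Pearson) intervals and single levels exact Poisson intervals, computed with Python 3.11.15 and SciPy 1.17.1. Reads carry no molecular identifiers, so intervals cover counting error only. No count test was run, since 1 library per genotype leaves nothing to estimate the spread from. The calculations were tested on simulated data.

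Members, lists and alternatives were chosen with earlier results of these data known. The naming rule took all 8 members, the loci of each pathway list past the size rule (at most 4 per direction), direct neighbours of the clusters and the 2 loci nearest to the members' median levels. Uncalled loci of the further JAZ list and the early stress loci under the floor were named to account for those lists. The table of gene names (assembly ASM3414082v1) matched 0 loci of the expression table. It gives OsJAZ names to 13 genes, 11 of which carry more than 1 such name, so no name was transferred.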

Additional observations from a re-analysis of the deposited data

How the results depend on the processing

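No paired analysis was possible because each genotype had 1 library, and for the same reason no library could be left out. Under TMM scaling and pseudocounts of 0.1 and 0.5 FPKM, 5 members were called higher and 0 lower. A mean of at least 5 FPKM, which fewer loci pass, left 3 members called higher, against 21.6% of all loci past it. That setting left 2 synthesis loci lower, against 28.0% of all loci, and a synthesis median of -0.65. No filter also gave a synthesis median of -0.65. A 4-fold limit on the ratio with 1 FPKM added left 1 member higher (LOC_Os10g25290), against 10.4% of all loci. It left 2 synthesis loci lower and 0 signalling loci higher, with 2014 of all loci higher and 3029 lower. Equal totals gave 7844 of all loci higher, medians of 1.80 for members, 0.76 for further JAZ loci, -0.0215 for synthesis and 1.21 for signalling loci, and 1 synthesis locus higher, 2 lower and 3 signalling loci higher. Leaving out the 50 most abundant loci gave medians of 1.53, 0.49, -0.30 and 0.92 for the same lists, with 1 synthesis and 2 signalling loci higher. These 2 settings raise MIM396 relative to WT by construction. Both pseudocounts gave 1 synthesis locus higher. The 5 called members kept positive log2 ratios under every setting, from 1.005 for LOC_Os09g26780 to 2.86 for LOC_Os10g25290. These 5 were picked for ratios past the limit, and each setting left their ratios unchanged or raised them. Their sign thus follows from the choice and is no check of it. LOC_Os03g28940 ranged from -0.45 to 0.28 and LOC_Os03g08310 from -0.40 to 0.11, so neither has a direction that holds across scalings. No member lay within 3 or 10 kb of a listed peak. Depth limits LOC_Os03g08310 most.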
